A study of Mus musculus with 4 samples.

Results

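The 35 genes described here are hypoxia and glycolysis genes, followed in mammary tumors of mice by single-cell RNA sequencing. They were chosen by name, with earlier results of these data known. They matched 36 of the 32285 rows of the feature lists, because Aldoa is listed under 2 Ensembl identifiers. The second Aldoa row, ENSMUSG00000114515, held at most 2 UMIs in any class of cells, and the values given for Aldoa are those of ENSMUSG00000030695. All 35 genes had UMIs and passed the filter on low counts in the comparisons of cell classes and of genotypes.

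The set joins genes that a cell uses to make energy without oxygen to genes that are switched on when oxygen falls. In normal oxygen, prolyl hydroxylases (Egln1, Egln3) mark the hypoxia-inducible factors for breakdown, and when oxygen is short the factors persist, enter the nucleus and bind short DNA words called hypoxia response elements near their target genes. The targets raise glucose uptake and glycolysis, send pyruvate to lactate and away from mitochondria, remove damaged mitochondria, buffer acid and modify collagen. Solid tumors such as those of the mammary gland hold poorly perfused regions, in which these genes are classically high.

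Tumors were taken at 17 to 18 weeks. The design names tumors of 4 mice for the 4 libraries, so that each library is treated here as 1 mouse, although the labels do not tie a library to an animal. The p-values between genotypes measure the spread between these libraries. Fits of cell classes and of the high tail hold several sums per library. They treat these sums as independent, so that their p-values can be too small or too large. With the mouse as a block, p-values rest on the spread of differences within libraries. The floxed and PyMT lines were on a C57BL/6 background, per the methods. All mice carried the PyMT transgene, which drives mammary tumors, and 2 floxed copies of Frmd8 (Frmd8 fl/fl). Replicates 1 and 3 lacked the Cre transgene (MMTV-Cre-; Frmd8 fl/fl; PyMT, called Cre- here), and replicates 2 and 4 carried it (MMTV-Cre+; Frmd8 fl/fl; PyMT, called Cre+). The MMTV promoter drives Cre mainly in mammary luminal epithelium, so that the stroma and the immune cells of Cre+ mice were not the intended site of deletion.

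The libraries held 112729231 to 157662955 UMIs, tags that count a captured RNA molecule once however often it is read. Barcodes with at least 1000 UMIs, of which at most 20% were mitochondrial, numbered 4922 and 5918 for the Cre- mice and 5609 and 7123 for the Cre+ mice, with median depths of 12455 to 13072 UMIs. Any 2 libraries shared 6 to 16 barcodes. Frmd8 itself stood at 25.1 and 24.7 UMIs per 1000000 (CPM) in the Cre- libraries and at 11.3 and 12.9 CPM in the Cre+ libraries. These are levels over all kept barcodes, including cells that were not the intended site of deletion, and 3′ tags need not fall within the floxed exons. Where the remaining Cre+ counts come from was not tested. Cre+ replicate 4 was deposited with every barcode and under another software version than the other libraries, so its source as a mouse, its processing and part of the Cre+ group cannot be told apart. Counts of genes called and the difference in tail share are given with and without it. With few exceptions, the fold changes and p-values of single genes between classes and in the tail come from fits that include it.

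Cells were assigned to a class when at least 3 UMIs of at least 2 markers of that class made up at least 70% of the UMIs on 7 marker lists, none of which holds a gene of the set. Epithelial cells numbered 2370, 2044, 2409 and 2970 in Cre- replicates 1 and 3 and Cre+ replicates 2 and 4. The other classes compared were macrophages (1047 to 2435 cells), fibroblasts (178 to 638), endothelial cells (77 to 185), neutrophils (29 to 255) and T cells (248 to 348), and 8.34% to 19.9% of the barcodes stayed without a class. UMIs were summed per library and class, so that within a class the mouse was the replicate, and levels are given as CPM of that sum. Levels are compared for 1 gene at a time, between cells and mice.

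The hypoxia response element has a core of ACGTG or GCGTG, and these letters were searched on both strands in the window from 250 bases before to 50 bases after each start site, taken from RefSeq on build GRCm38.p6. The set matched 48 windows of 32 genes. Of these 32 genes, 30 held at least 1 of the 2 words (93.8%), against 46.7% of the 27025 genes with a window and 64.5% of the 12101 that were also tested in epithelial cells. Counted by window, 83.3% of those of the set held either word, against 43.8% of all windows and 58.8% of those of the tested genes. ACGTG alone was present for 23 of the 32 genes, against 21.8% of all genes and 28.0% of the tested genes. The median GC content was 65.2% in the windows of the set, 52.7% in all windows and 60.0% in those of the tested genes. Gpi1 and Tpi1 were the 2 matched genes without either word in any window. Stretches of 41 bases are shown for 3 genes that were later used to mark cells with high levels and for 5 held-out genes from 4 roles that are described below, read 5′ to 3′ along the gene, with every match in capitals. In CACGTG the word ACGTG is read on both strands, and in CACGCGTG the word GCGTG is read on both strands and overlaps itself.
Bnip3, chr7:138909592-138909632, minus strand: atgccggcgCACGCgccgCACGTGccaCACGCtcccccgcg
Ankrd37, chr8:45999983-46000023, minus strand: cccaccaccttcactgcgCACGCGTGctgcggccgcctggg
Hilpda, chr6:29272565-29272605, plus strand: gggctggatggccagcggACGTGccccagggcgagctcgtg
Pgk1, chrX:106186951-106186991, plus strand: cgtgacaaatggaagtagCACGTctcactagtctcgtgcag
Slc2a1, chr4:119108691-119108731, plus strand: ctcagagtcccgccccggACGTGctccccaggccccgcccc
Slc16a3, chr11:120949022-120949062, plus strand: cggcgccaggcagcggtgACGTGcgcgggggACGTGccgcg
Egln1, chr8:124949300-124949340, minus strand: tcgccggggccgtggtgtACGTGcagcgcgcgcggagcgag
P4ha2, chr11:54100828-54100868, plus strand: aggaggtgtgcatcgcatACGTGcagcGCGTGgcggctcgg
The central match lay 106 bases before the start site in Bnip3, 153 in Ankrd37, 41 in Hilpda, 129 in Pgk1, 34 in Slc2a1, 25 in Slc16a3, 66 in Egln1 and 76 in P4ha2. A match describes these letters only, and no binding was measured.

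The first question was which cells of the tumor carried these genes. Neutrophils had the highest mean level of 17 of the 35 genes (14.1% of the 13688 genes tested between classes had theirs there), epithelial cells of 9 (23.7%), endothelial cells of 4 (19.3%), fibroblasts of 3 (16.7%) and macrophages of 2 (9.04%). For 6 of the 35 genes the lowest library of the leading class stood above every library of every other class, which was so for 36.5% of all genes. These were Slc16a3, Slc2a1 and Pfkfb4 in neutrophils, Plod2 and P4ha2 in fibroblasts, and Car9 in epithelial cells.

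**Figure D1:**
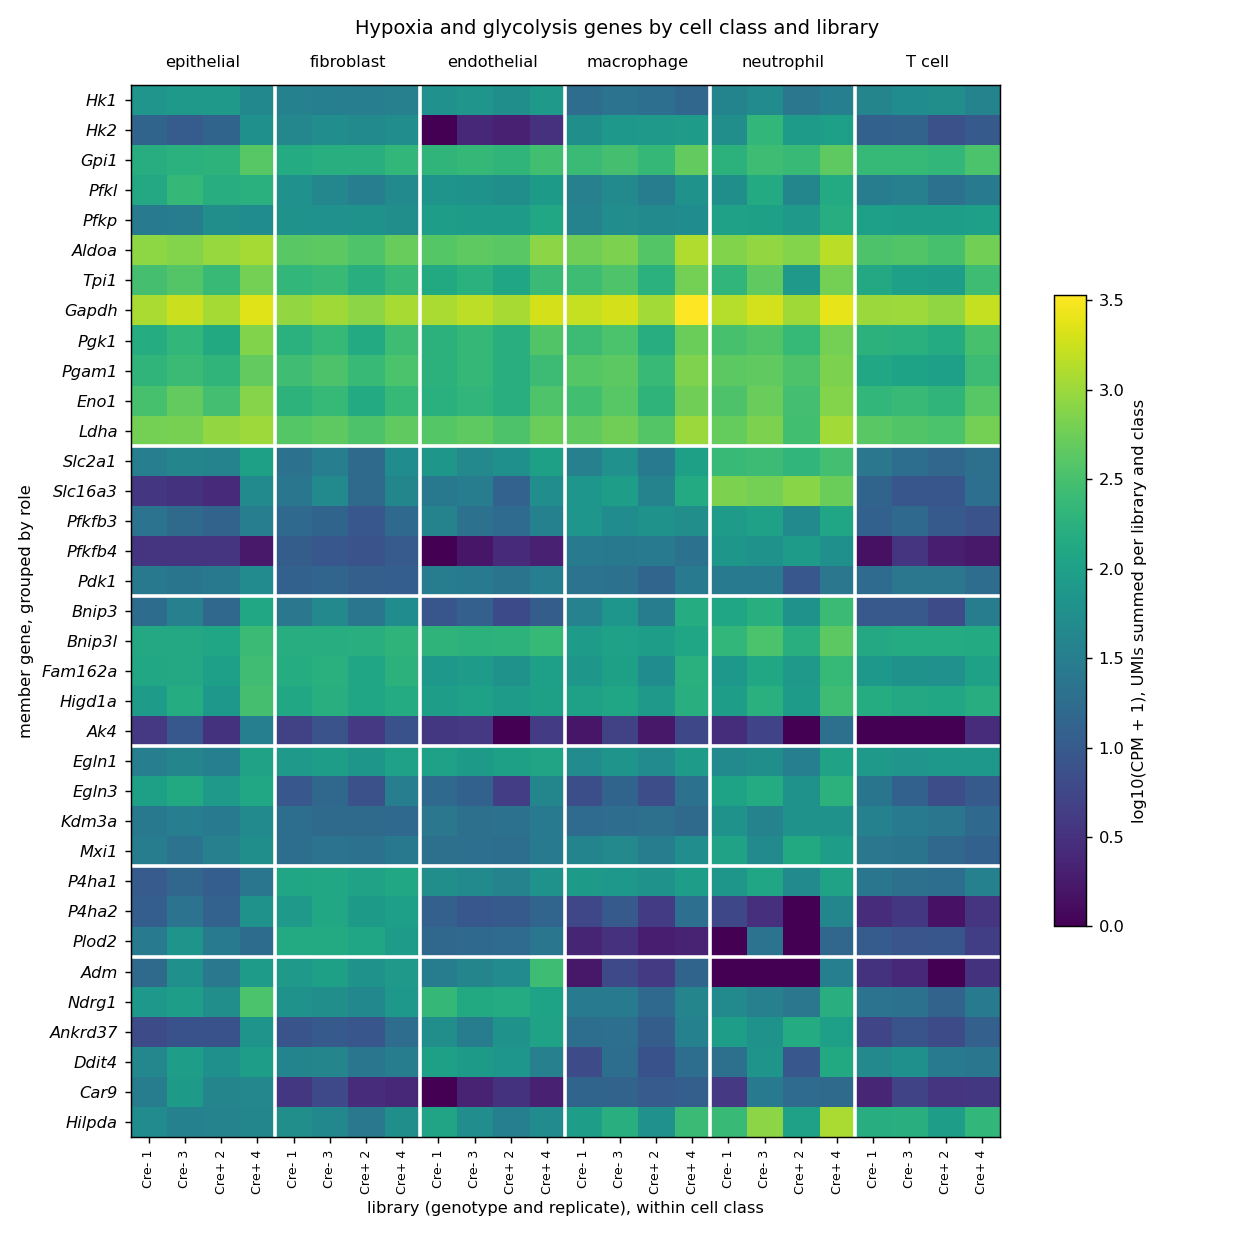
Level of each of the 35 genes (rows, grouped by role) in the UMI sum of each library (columns, Cre- replicates 1 and 3, then Cre+ replicates 2 and 4, within 6 cell classes), as log10(CPM + 1) on the color scale. Slc16a3, Slc2a1 and Pfkfb4 are brightest in neutrophils, P4ha2 and Plod2 in fibroblasts and Car9 in epithelial cells, and Cre+ replicate 4 is the brightest column for most genes in epithelial cells and in macrophages.

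The tests that follow set epithelial cells against each other class in 1 model of all classes (edgeR's quasi-likelihood test, 13688 genes, adjusted p below 0.05). They are given as log2 fold changes of epithelial cells over the other class with their standard error (SE). Against macrophages, 10 of the 35 genes were higher in epithelial cells and 8 lower, where 31.9% of all genes were higher and 28% lower. Against fibroblasts 9 were higher and 7 lower (25.9% and 30% of all genes), against endothelial cells 15 and 3 (27.9% and 25.5%), and against T cells 15 and 3 (33.3% and 26.3%). Against neutrophils only 3 were higher and 13 lower (33.1% and 20.6%), and neutrophils were the class with the fewest UMIs per cell, with medians of 3599 to 3802. Against neutrophils the set thus had more lower genes and fewer higher genes than the shares of all genes would give, and against endothelial cells and T cells few lower genes. With the mouse as a block the counts were 11 and 13 against macrophages (33.9% and 30.1% of all genes), 13 and 9 against fibroblasts (28.1% and 32%), 15 and 5 against endothelial cells (29.6% and 26.8%), 5 and 16 against neutrophils (34.4% and 21.2%), and 19 and 4 against T cells (34.8% and 28%). The members with the firmest differences are described next by role.

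The 12 glycolytic enzymes catalyze steps from glucose to lactate, without pyruvate kinase, which was not in the set. Their summed level in epithelial cells was 4032 and 4975 CPM in Cre- replicates 1 and 3 and 4386 and 7739 CPM in Cre+ replicates 2 and 4. Macrophages held 4280, 5253, 3010 and 8777 CPM in the same order, and neutrophils 4344, 6082, 3520 and 8517 CPM. Fibroblasts ranged from 2553 to 3590 CPM, endothelial cells from 2920 to 5125 CPM and T cells from 2446 to 4611 CPM. In all 6 classes Cre+ replicate 4 was the highest library, and in all but epithelial cells Cre+ replicate 2 was the lowest.

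Isoforms of the same enzyme were divided between the classes. Hk1 and Hk2 are hexokinases, which trap glucose in the cell. Hk1 stood in epithelial cells at 67.7 and 77.7 CPM (Cre-) and at 78.6 and 43.0 CPM (Cre+), and in macrophages at 17.0, 21.2, 18.2 and 13.6 CPM, with no overlap (log2 fold change 1.62 ± 0.18 SE, edgeR adjusted p = 3.78e-08). Hk2, the isoform that hypoxia induces, was at 12.8, 9.64 and 12.6 CPM in epithelial cells of replicates 1, 3 and 2 and at 57.2 CPM in Cre+ replicate 4. In macrophages it was at 55.5 to 89.4 CPM (log2 fold change -1.95 ± 0.47 SE, edgeR adjusted p = 0.000949). Endothelial cells carried Hk1 at 56.2 to 80.4 CPM but Hk2 at no more than 2.20 CPM, and the difference in Hk2 from epithelial cells was 4.53 ± 0.78 SE on the log2 scale (edgeR adjusted p = 3.76e-05). Of the phosphofructokinases, which commit glucose to glycolysis, Pfkl was higher in epithelial cells than in macrophages (1.66 ± 0.30 SE, edgeR adjusted p = 3.94e-05), fibroblasts (1.81 ± 0.30 SE, edgeR adjusted p = 2.3e-05), endothelial cells and T cells. Pfkp was lower in epithelial cells than in each of the 5 other classes, from -0.54 ± 0.22 SE against macrophages to -1.60 ± 0.24 SE against neutrophils. Its libraries overlapped between epithelial cells, at 26.2 to 53.8 CPM, and macrophages, at 37.0 to 52.7 CPM. Among the epithelial libraries, both of the Cre+ mice were above both of the Cre- mice.

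Aldoa (aldolase), Eno1 (enolase) and Ldha (lactate dehydrogenase) were each higher in epithelial cells than in fibroblasts, by 0.98 ± 0.34 SE, 1.14 ± 0.40 SE and 0.83 ± 0.35 SE on the log2 scale (edgeR adjusted p = 0.0182, 0.019 and 0.0457), and than in endothelial cells. Eno1 shares nearly all of its sequence with Eno1b, which stood at 11.7 to 18.3 CPM in epithelial cells, so that the division of their reads is uncertain. Pgk1 (phosphoglycerate kinase), Gapdh and Gpi1 (glucose-6-phosphate isomerase) did not pass the test against any class without the mouse as a block. With the block, all 3 were lower in epithelial cells than in macrophages, by -0.54 ± 0.21 SE, -0.60 ± 0.16 SE and -0.77 ± 0.15 SE (edgeR adjusted p = 0.0337, 0.00246 and 0.000171). Pgk1 and Gpi1 were then also lower than in neutrophils (-0.60 ± 0.22 SE and -0.41 ± 0.16 SE, edgeR adjusted p = 0.0283 and 0.0378), and Gapdh was higher than in fibroblasts (0.48 ± 0.16 SE, edgeR adjusted p = 0.0125).

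Of the genes of transport and control of glycolysis, 4 of 5 were lower in epithelial cells than in neutrophils. Slc16a3 encodes the lactate exporter MCT4. It was at 668 and 624 CPM in neutrophils of Cre- replicates 1 and 3 and at 796 and 545 CPM in Cre+ replicates 2 and 4. In epithelial cells it was at 2.64, 2.30 and 1.68 CPM in replicates 1, 3 and 2 and at 45.9 CPM in Cre+ replicate 4 (log2 fold change -5.63 ± 0.91 SE, edgeR adjusted p = 2.32e-05). The epithelial level was thus low in 3 mice and raised in 1. Slc2a1, the glucose transporter GLUT1, was at 209 to 295 CPM in neutrophils and at 31.1, 39.9, 36.5 and 101 CPM in epithelial cells in the order Cre- 1, Cre- 3, Cre+ 2, Cre+ 4 (-2.34 ± 0.45 SE, edgeR adjusted p = 0.000177). Pfkfb3 and Pfkfb4 make the allosteric activator of phosphofructokinase. Pfkfb4 was at 57.9 to 88.4 CPM in neutrophils, at 19.8 to 27.6 CPM in macrophages and at 0.717 to 2.52 CPM in epithelial cells, and the difference was -5.18 ± 0.36 SE against neutrophils and -3.93 ± 0.32 SE against macrophages (edgeR adjusted p = 5.61e-11 and 4.93e-10). Pdk1, the kinase that keeps pyruvate out of mitochondria, passed the test against fibroblasts only, where epithelial cells were higher (1.32 ± 0.26 SE, edgeR adjusted p = 0.00016).

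Of the genes of oxygen sensing and chromatin, Egln3 was high in epithelial cells and neutrophils. Egln3 was at 99.4 and 140 CPM in epithelial cells of the Cre- libraries and at 80.8 and 131 CPM in the Cre+ libraries. Its levels were 6.44 to 31.5 CPM in fibroblasts and 5.80 to 20.4 CPM in macrophages, and those of neutrophils, at 64.3 to 184 CPM, overlapped with epithelial cells. The epithelial excess was 2.99 ± 0.54 SE against macrophages, 2.86 ± 0.55 SE against fibroblasts, 2.85 ± 0.59 SE against endothelial cells and 3.10 ± 0.58 SE against T cells (largest edgeR adjusted p = 0.000284). Against neutrophils the difference was -0.34 ± 0.53 SE (edgeR adjusted p = 0.619). Egln1, the main oxygen sensor, was lower in epithelial cells than in fibroblasts (-0.83 ± 0.34 SE) and endothelial cells (-0.89 ± 0.35 SE). Kdm3a, a histone demethylase, was higher in epithelial cells than in macrophages, fibroblasts and endothelial cells and lower than in neutrophils.

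The 3 genes of collagen modification were all lower in epithelial cells than in fibroblasts. P4ha1 and P4ha2 are catalytic subunits of collagen prolyl 4-hydroxylase, and Plod2 is a lysyl hydroxylase that sets collagen crosslinks. P4ha1 was at 106 to 131 CPM in fibroblasts and at 9.15, 13.6, 10.2 and 23.6 CPM in epithelial cells (-3.19 ± 0.31 SE, edgeR adjusted p = 1.19e-08). P4ha2 differed by -1.96 ± 0.57 SE and Plod2 by -1.96 ± 0.39 SE (edgeR adjusted p = 0.0059 and 0.000206). P4ha1 was also lower in epithelial cells than in macrophages, by -2.78 ± 0.30 SE (edgeR adjusted p = 4.6e-08), whereas Plod2, at 1.00 to 2.21 CPM in macrophages and at 16.6 to 65.7 CPM in epithelial cells, was higher by 4.23 ± 0.45 SE (edgeR adjusted p = 3.24e-08).

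Among the remaining hypoxia targets, Car9 was higher in epithelial cells than in each of the 5 other classes. Car9 encodes the cell surface carbonic anhydrase IX, which buffers acid. It was at 29.8 and 82.9 CPM in epithelial cells of the Cre- libraries and at 39.9 and 42.1 CPM in the Cre+ libraries, and no library of fibroblasts passed 5.02 CPM or of endothelial cells 2.27 CPM. The difference was 5.55 ± 0.60 SE against endothelial cells, 3.94 ± 0.44 SE against fibroblasts and 1.82 ± 0.39 SE against macrophages (edgeR adjusted p = 6.53e-08, 1.14e-07 and 0.000311). Adm (adrenomedullin, a vasoactive peptide), Ndrg1 and Ddit4 (an inhibitor of mTOR signaling) were higher in epithelial cells than in macrophages, by 2.71 ± 0.78 SE, 2.08 ± 0.52 SE and 2.24 ± 0.49 SE (edgeR adjusted p = 0.00452, 0.00143 and 0.000419), and did not pass the test against fibroblasts without the block. With it, Adm was lower in epithelial cells than in fibroblasts (-1.40 ± 0.45 SE, edgeR adjusted p = 0.0108) and Ndrg1 higher (0.84 ± 0.35 SE, edgeR adjusted p = 0.0448). Hilpda, which blocks the breakdown of lipid droplets, went the other way. It was at 48.8, 34.2, 36.3 and 40.3 CPM in epithelial cells and at 246, 808, 104 and 1191 CPM in neutrophils (-4.03 ± 0.60 SE, edgeR adjusted p = 8.55e-06), and lower in epithelial cells than in macrophages (-2.16 ± 0.55 SE) and T cells (-2.16 ± 0.55 SE).

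Between epithelial cells and fibroblasts, 0 of the 5 mitochondrial and mitophagy genes passed the test (edgeR, 0 at an unadjusted p under 0.05, and 0 with the mouse as a block). Bnip3 and Bnip3l, receptors that target mitochondria for removal, were lower in epithelial cells than in neutrophils (-1.75 ± 0.68 SE and -0.96 ± 0.27 SE, edgeR adjusted p = 0.0333 and 0.00433). Bnip3 was higher than in endothelial cells (2.56 ± 0.76 SE, edgeR adjusted p = 0.00717), where it stood at 5.11 to 11.2 CPM. Of 39 further genes of the pathway found in the feature lists, 33 could be tested, and in epithelial cells 9 were higher and 7 lower than in macrophages (31.9% and 28% of all genes), 8 and 13 than in fibroblasts (25.9% and 30%), 14 and 5 than in endothelial cells (27.9% and 25.5%), 9 and 8 than in neutrophils (33.1% and 20.6%), and 13 and 6 than in T cells (33.3% and 26.3%).

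The second question was whether some epithelial cells stood out by these genes. Cells were thinned at random to 2000 UMIs each, and the high tail was defined as cells with at least 3 UMIs of at least 2 of 6 choosing genes, namely Adm, Bnip3, Ndrg1, Egln3, Ankrd37 and Hilpda. Cells with fewer UMIs than 2000 were left out. Among epithelial cells these were 127 of 2370 and 112 of 2044 in Cre- replicates 1 and 3, and 74 of 2409 and 376 of 2970 in Cre+ replicates 2 and 4. Cre- replicate 1 had 50 such cells among 2243 (2.23%, exact 95% binomial interval 1.66% to 2.93%) and Cre- replicate 3 had 146 among 1932 (7.56%, 6.42% to 8.83%). Cre+ replicate 2 had 28 among 2335 (1.20%, 0.798% to 1.73%) and Cre+ replicate 4 had 552 among 2594 (21.3%, 19.7% to 22.9%). The intervals cover counting error only. The 2 Cre+ libraries held the lowest and the highest share, so that the genotypes overlapped. The means were 4.89% (SD 3.77, n = 2) for Cre- and 11.2% (SD 14.2, n = 2) for Cre+, a difference of 6.35 percentage points that was not tested. The shares depended on the settings. At a threshold of 5 UMIs the lowest share was that of Cre- replicate 1 (9 cells, 0.401%), with Cre+ replicate 2 at 11 cells (0.471%). Thinned to 1000 and to 4000 UMIs, Cre+ replicate 2 had 0.415% and 5.26%, and Cre+ replicate 4 had 10.5% and 34.1%.

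**Figure D2:**
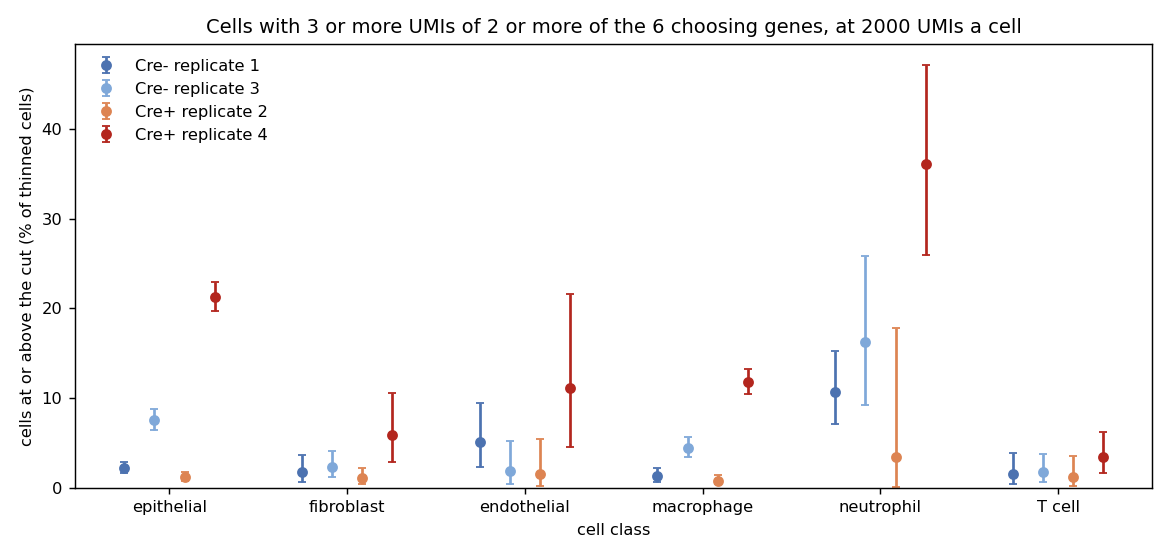
Share of cells in the high tail (percent of cells thinned to 2000 UMIs) by cell class, 1 point per library with its exact 95% binomial interval. Cre+ replicate 4 has the highest share in all 6 classes, with 21.3% of epithelial cells and 36.0% of neutrophils, and Cre+ replicate 2 has the lowest in all 6, with 1.20% of epithelial cells.

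The same rule was applied to the other classes, and Cre+ replicate 4 was highest and Cre+ replicate 2 lowest in each. Neutrophils reached 10.7% and 16.3% in Cre- replicates 1 and 3 and 3.45% and 36.0% in Cre+ replicates 2 and 4, macrophages 1.30%, 4.42%, 0.787% and 11.8%, and T cells 1.52%, 1.74%, 1.21% and 3.44%. In Cre+ replicate 2 the shares rested on few cells, with 1 of 29 neutrophils, 2 of 131 endothelial cells and 3 of 248 T cells. In Cre+ replicate 4 the barcodes with at most 100 UMIs, which are taken to be empty droplets, held the choosing genes at 573 CPM, which would give 1.15 UMIs in 2000 if a barcode held nothing but this free RNA. The T cells of that library had the share of 3.44% given above. Calling its cells by an order-of-magnitude rule, with at least 10978 UMIs, gave 20.8%.

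The counts fell off without a gap at the threshold. In Cre+ replicate 4, 1168 cells had 0 choosing-gene UMIs, 562 had 1, 269 had 2, 154 had 3, 101 had 4 and 82 had 5, and the highest cell had 39. In Cre- replicate 1 the same counts fell from 1416 at 0 to 156 at 2, 45 at 3 and 14 at 4. At the threshold of 3 UMIs were thus 154 and 45 cells and just below it 269 and 156. Of all cells with 3 or more UMIs, 43 and 21 had them from 1 gene alone and were left out of the tail.

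The other 29 genes had no part in choosing the tail, but they belong to the same set as the 6 choosing genes. Their levels describe whether the set moved together and are not independent support for the tail. The 6 choosing genes are given as a description only: their level in the tail was 1.72 (Ankrd37 in Cre- replicate 1) to 19.0 (Adm) times that in the other epithelial cells. Of the 29 held-out genes, 24 were higher in the tail in all 4 mice and 0 were lower in all 4, where 7.56% of the 14583 genes tested were higher in all 4 and 22.3% lower. These shares were not matched for level and include genes with few UMIs, which can be at 0 in a small tail.

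Slc2a1 (GLUT1) was at 99.1 and 272 CPM in the tail of Cre- replicates 1 and 3 and at 135 and 314 CPM in Cre+ replicates 2 and 4, against 29.7, 26.0, 35.3 and 54.6 CPM in the other epithelial cells. Each mouse's tail was thus at least 3.34 times its own remaining epithelium, and the lowest tail value lay above the highest value outside. Pgk1, phosphoglycerate kinase, was at 281, 692, 357 and 1726 CPM in the tail and at 147, 189, 135 and 509 CPM outside. Here the groups overlapped between mice, since the epithelial cells of Cre+ replicate 4 outside the tail were above the tail of Cre- replicate 1 and Cre+ replicate 2, but the tail was higher within each mouse. P4ha1 was at 27.6, 55.2, 29.7 and 60.9 CPM in the tail and at 8.74, 11.02, 9.95 and 15.4 CPM outside, without overlap.

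The tail and the rest were paired within each library, and the test without pairing and the test with the mouse as a block gave different answers. Without the block, 0 of the 29 held-out genes were called by edgeR (19 at an unadjusted p under 0.05), and 1 gene of 14583 was called in all (0.00686%). DESeq2 without the block called 7 of the 29, all higher in the tail, where 1.26% of all genes were called (1.12% higher and 0.144% lower). With the mouse as a block, edgeR called 22 of the 29, all higher in the tail, where 435 of 14583 genes were called (2.98%; 2.13% higher and 0.857% lower). Both fits use the same sums, with a tail and a remainder from each library, so that the block could hardly change the direction. Agreement in direction between them is therefore not separate support. In both fits 27 of the 29 had a positive log2 fold change, with a median of 1.29 without and 1.15 with the block, against -0.05 for all genes in each. In fits added after the data were seen, the block called 26 of the 29 without Cre- replicate 1 (5.67% of all genes were higher), 18 without Cre+ replicate 2 (0.999%), 19 without Cre- replicate 3 (0.735%) and 20 without Cre+ replicate 4 (1.16%). It called 21 when the gate for epithelial cells was raised to 90% of the marker UMIs (1.55%) and 21 when the cells of Cre+ replicate 4 were called by the order-of-magnitude rule (2.02%).

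**Figure D3:**
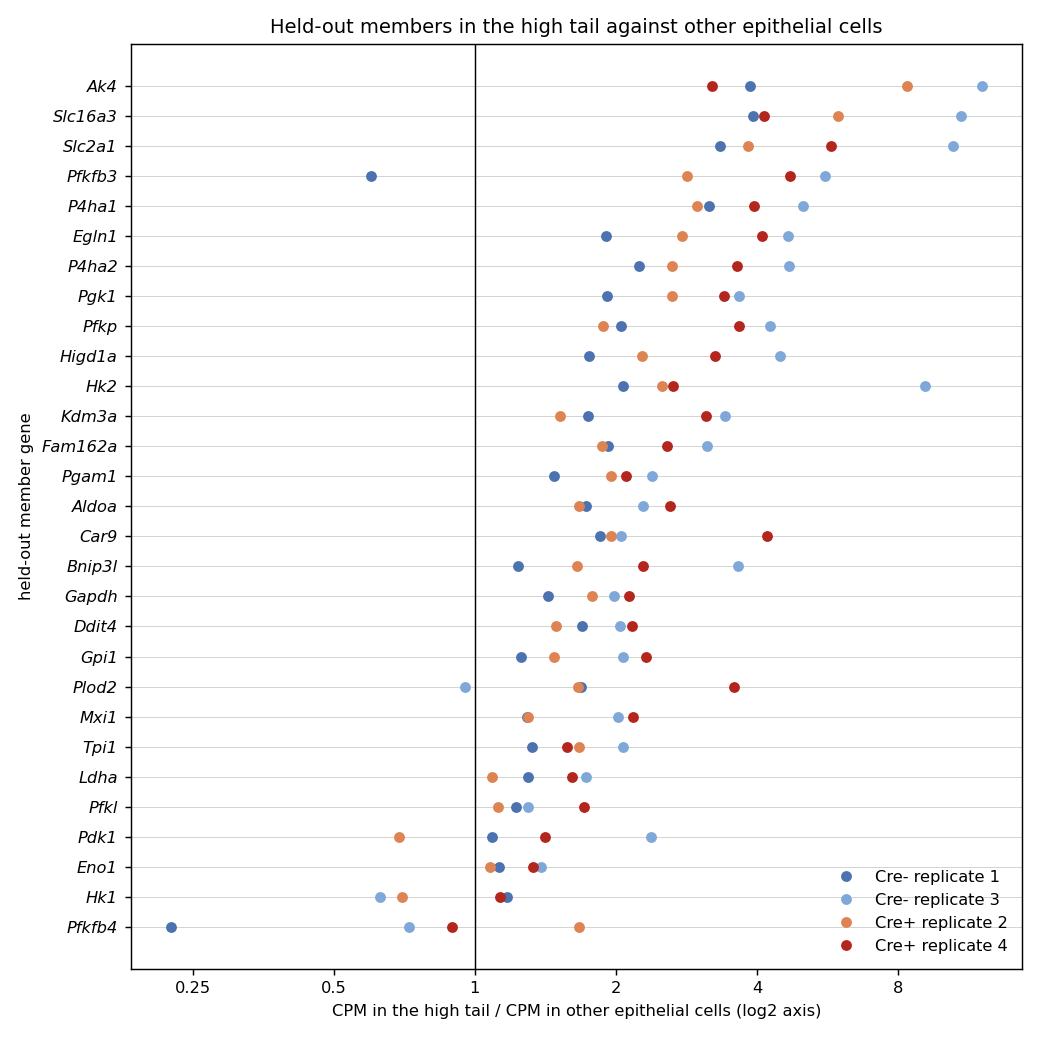
CPM in the high tail divided by CPM in the other epithelial cells of the same library for the 29 held-out genes (rows, ordered by their median ratio), 1 point per library on a log2 axis, with the line at 1 marking no difference. For 24 of the 29 genes all 4 points lie above 1, and Hk1, Pfkfb3, Pfkfb4, Pdk1 and Plod2 are the genes with points on both sides.

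The called genes came from every role. Glycolytic enzymes passed in 8 of 12 cases in the blocked fit, among them Pgk1 (1.61 ± 0.18 SE, edgeR adjusted p = 0.000655), Pfkp (1.63 ± 0.22 SE, edgeR adjusted p = 0.00269), Hk2 (1.92 ± 0.31 SE, edgeR adjusted p = 0.00824) and Aldoa (1.14 ± 0.16 SE, edgeR adjusted p = 0.0036). Without the block their adjusted p were 0.501, 0.351, 0.499 and 0.351 in edgeR. Hk1, Pfkl, Eno1 and Ldha did not pass. Hk1 was at 78.9, 49.7, 55.3 and 47.5 CPM in the tail and at 67.5, 79.4, 79.0 and 42.1 CPM outside, and Ldha was higher in the tail in each mouse with ratios of 1.09 to 1.73 (0.61 ± 0.15 SE, edgeR adjusted p = 0.0529 with the block).

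Of transport and control, Slc2a1 (2.54 ± 0.25 SE), Slc16a3 (2.62 ± 0.26 SE) and Pfkfb3 (1.71 ± 0.42 SE) were called with the block (edgeR adjusted p = 0.000274, 0.000274 and 0.0496), and without it their adjusted p were 0.297, 0.585 and 0.436. Slc16a3 was at 9.79, 16.1, 9.44 and 122 CPM in the tail and at 2.49, 1.48, 1.58 and 29.4 CPM outside, and the tails of replicates 1 and 2 rested on 17 and 7 UMIs. Pfkfb4 did not follow its paralog, with 0.576, 1.82, 4.05 and 0.646 CPM in the tail and 2.56, 2.52, 2.42 and 0.721 CPM outside (-0.25 ± 0.48 SE, edgeR adjusted p = 0.808 with the block), from 1 to 8 UMIs per tail. Pdk1 was not called (edgeR adjusted p = 0.181 with the block).

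The held-out genes of mitochondria and mitophagy were all called with the block, namely Ak4, a mitochondrial adenylate kinase (2.67 ± 0.31 SE), Higd1a (1.60 ± 0.22 SE), Fam162a (1.34 ± 0.16 SE) and Bnip3l (1.15 ± 0.23 SE), with edgeR adjusted p of 0.000956 to 0.0222. Egln1 (1.82 ± 0.22 SE), Kdm3a (1.39 ± 0.22 SE) and Mxi1, a MYC antagonist (0.88 ± 0.19 SE), were called as well (largest edgeR adjusted p = 0.0282), and Egln3, the other oxygen sensor of the set, was among the choosing genes. P4ha1 (2.06 ± 0.18 SE) and P4ha2 (1.86 ± 0.20 SE) were called and Plod2 was not (0.94 ± 0.26 SE, edgeR adjusted p = 0.000145, 0.000573 and 0.0737). Car9 (1.38 ± 0.21 SE, edgeR adjusted p = 0.00635) and Ddit4 (1.01 ± 0.15 SE, edgeR adjusted p = 0.0052) completed the list. Without the block the edgeR adjusted p of the genes called in this paragraph ran from 0.297 (P4ha1) to 0.531 (Mxi1).

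The held-out levels were higher in cells with 5 to 9 choosing-gene UMIs than in cells with 0 in all 4 libraries, and rose at each step up to there in Cre- replicates 1 and 3 and Cre+ replicate 4 for the glycolytic enzymes. In Cre+ replicate 4 the 12 glycolytic enzymes summed to 5708 CPM in cells with 0 choosing-gene UMIs, to 8559 CPM at 2, to 14037 CPM at 5 to 9 and to 18894 CPM at 10 or more. In Cre- replicate 3 they went from 4449 CPM at 0 to 10681 CPM at 5 to 9, and the 17 cells with 10 or more stood at 10402 CPM. In Cre- replicate 1 and Cre+ replicate 2 the cells with 3 or 4 UMIs, at 4954 and 4476 CPM, compared with 3852 and 4373 CPM in those with 0. All held-out genes summed there to 5694 and 5072 CPM, against 4473 and 4972 CPM at 0. Not every role rose. In Cre+ replicate 2, transport and control fell from 76.6 CPM at 0 to 46.1 CPM, and the other hypoxia targets from 97.2 to 74.4 CPM. For Cre- replicate 1, transport and control stood at 83.1 CPM at 0 and 83.0 CPM at 3 or 4. In each of these 2 libraries only 9 cells had 5 to 9 UMIs, at 9332 and 10575 CPM, and 3 and 2 cells had 10 or more, at 13468 and 8525 CPM. The upper end there thus rested on few cells.

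**Figure D4:**
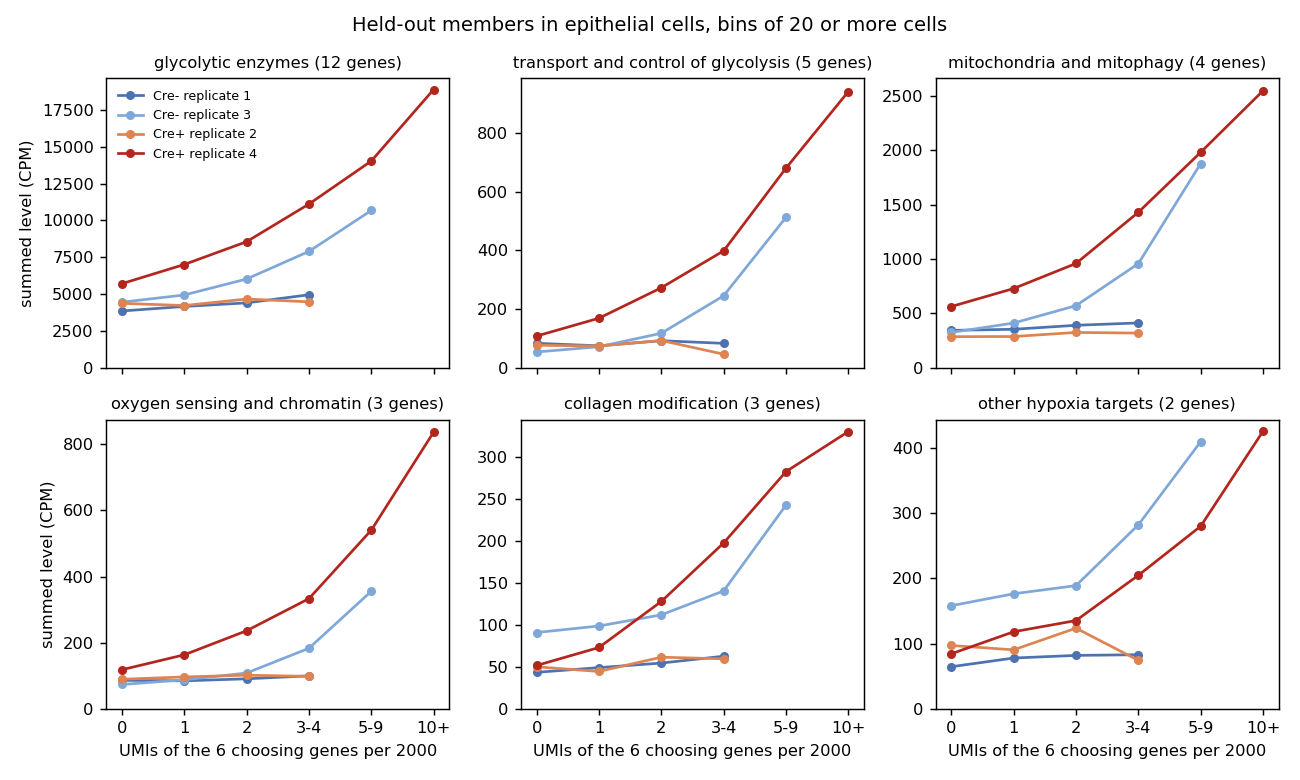
Summed CPM of the held-out genes of each role (6 panels) in epithelial cells grouped by their UMIs of the 6 choosing genes per 2000 UMIs, 1 line per library, for groups of at least 20 cells. All 6 roles rise in Cre- replicate 3 and Cre+ replicate 4, and the glycolytic lines of Cre- replicate 1 and Cre+ replicate 2 end at 4954 and 4476 CPM at 3 or 4 UMIs, beyond which they have fewer than 20 cells per group. In Cre+ replicate 2 the lines of transport and control and of other hypoxia targets end below their level at 0 UMIs.

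Markers of other cell types were measured in the tail. The 6 neutrophil markers summed to 73.7 and 43.2 CPM in the tails of Cre- replicates 1 and 3 and to 48.6 and 211 CPM in those of Cre+ replicates 2 and 4, against 33.6, 60.5, 35.6 and 94.8 CPM outside, so they were higher in the tail in 3 of 4 mice, and 0 to 5 of the 6 were at 0 in a tail. The 6 macrophage markers summed to 15.6, 43.2, 35.1 and 68.7 CPM in the tail and 26.4, 35.4, 58.2 and 79.8 CPM outside. The part of such cells in the result was not tested, beyond the stricter gate given above. Tail cells were deeper than the others in 2 of 4 mice, with median UMIs of 27455, 19444, 14953.5 and 14090.5 against 25948, 25435, 14567 and 16365.5 outside, and their median share of mitochondrial UMIs was lower in each mouse (5.47%, 4.99%, 5.74% and 2.62% against 6.15%, 5.49%, 7.01% and 3.76%). The median number of genes per tail cell was also lower in each mouse (4904, 3913, 3766.5 and 3174 against 5084, 5042, 3825 and 3708.5).

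Of the 39 further pathway genes, 34 could be tested in the tail, and the blocked edgeR fit called 6 of them higher and 0 lower (2.13% and 0.857% of all genes). Without the block edgeR called 0 of the 34, with 8 at an unadjusted p under 0.05, and DESeq2 called 4 higher and 0 lower. The 6 were Vegfa, which draws in blood vessels (2.66 ± 0.19 SE, edgeR adjusted p = 2.73e-05), the oxidoreductase gene Ero1l, Mif, Gys1 (glycogen synthase), Slc16a1 (the lactate carrier MCT1) and Vhl, which marks the factors for breakdown. Vegfa was at 217 and 436 CPM in the tails of the Cre- libraries and at 235 and 592 CPM in those of the Cre+ libraries, against 41.2, 46.1, 54.0 and 113 CPM outside. Every tail was thus above every remainder. Hif1a itself was at 50.1, 51.0, 53.9 and 58.4 CPM in the tail and at 55.9, 47.4, 47.8 and 49.9 CPM outside, with overlap. Counted by direction, 9 of the 39 pathway genes were higher in the tail in all 4 mice and 6 were lower in all 4. Among all genes tested these shares were 7.56% and 22.3%. The lower genes were Aldoc (mean 279 CPM in the tail and 385 CPM outside), Ldhb (64.6 and 99.8 CPM), Pfkm, Pgm2, Pfkfb2 and Hif3a, which had 0 UMIs in each tail.

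Without the block the 1 gene called in the tail was Cd68, a lysosomal protein gene known as a macrophage marker, at 38.6 and 39.6 CPM in the tails of Cre- replicates 1 and 3 and at 25.6 and 22.8 CPM in those of Cre+ replicates 2 and 4, against 6.85 to 8.27 CPM outside (2.18 ± 0.21 SE, edgeR adjusted p = 0.0266). The summed macrophage markers given above were lower in the tail in 3 of 4 mice. With the block the leading genes outside the set included Mgarp, a mitochondrial gene (4.04 ± 0.40 SE), Adm2, a relative of adrenomedullin (3.60 ± 0.40 SE), Krt17, a keratin of basal and stressed epithelium (2.40 ± 0.41 SE), and Pgf, placental growth factor (2.33 ± 0.21 SE). Adm2 was near the floor in the Cre- libraries. It was at 1.15, 3.64, 17.5 and 22.3 CPM in the tails of Cre- replicates 1 and 3 and Cre+ replicates 2 and 4, against 0.0616, 0.327, 0.653 and 3.64 CPM outside. Of 6 endoplasmic reticulum stress genes, 2 were called higher with the block, Ddit3 (1.53 ± 0.14 SE, edgeR adjusted p = 0.000145) and Atf4 (0.71 ± 0.15 SE, edgeR adjusted p = 0.0272). Lower genes (0.857% of all genes) included Lalba and Wap of the 4 alveolar genes tested, Prlr of the 6 hormone-sensing genes, Acta2 of the 6 basal genes and Krt6a of the 5 squamous genes tested. Of the luminal progenitor, cycling and immediate early stress lists 0 genes were called. The lists as a whole were mixed. In the order Cre- 1, Cre- 3, Cre+ 2, Cre+ 4, the basal list summed to 65.1, 142, 190 and 508 CPM in the tail and 62.5, 163, 120 and 767 CPM outside. The squamous list summed to 106, 28.9, 40.5 and 173 CPM against 67.2, 27.5, 56.4 and 359 CPM. The hormone-sensing sum was lower in the tail except in Cre- 3 (107 against 101 CPM), and the alveolar sum was lower in each library.

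The third question was whether the genotypes differed. In epithelial cells edgeR called 0 of the 35 genes, and 0 of 16297 genes in all (0%), with 2 of the 35 and 411 of all genes at an unadjusted p under 0.05. In macrophages it called 0 of 35 and 0 of 13396 (0 and 262 unadjusted), and in fibroblasts 0 of 35 and 0 of 13517 (1 and 633 unadjusted). DESeq2 called 57 genes in epithelial cells (0.35%), among them 1 of the set (Pfkp, 0.97 on the log2 scale, DESeq2 adjusted p = 0.0235), 18 genes in macrophages (0.134%) and 62 in fibroblasts (0.459%), with 0 of the set. With 2 mice against 2, an exact permutation test of a single value cannot go below p = 0.333. Frmd8 itself was not called by edgeR in epithelial cells. Over all kept barcodes it stood at 25.1 and 24.7 CPM in the Cre- libraries and at 11.3 and 12.9 CPM in the Cre+ libraries. A count of 0 genes called therefore does not show that levels were equal.

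Cre+ replicate 4 was the highest library for 26 of the 35 genes in epithelial cells (22.3% of all genes), for 28 in macrophages (24.1%) and for 17 in fibroblasts (27%). Cre+ replicate 2 was the lowest for 14 in epithelial cells (14.3% of all genes), for 25 in macrophages (26.6%) and for 24 in fibroblasts (28.1%). Pgk1 was at 150 and 218 CPM in epithelial cells of Cre- replicates 1 and 3, at 138 CPM in Cre+ replicate 2 and at 726 CPM in Cre+ replicate 4. Bnip3 was at 16.9, 33.9, 14.6 and 128 CPM in the same order, and Ndrg1 at 75.2, 93.3, 54.0 and 341 CPM. For these genes the 2 Cre+ mice lay on opposite sides of both Cre- mice.

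**Figure D5:**
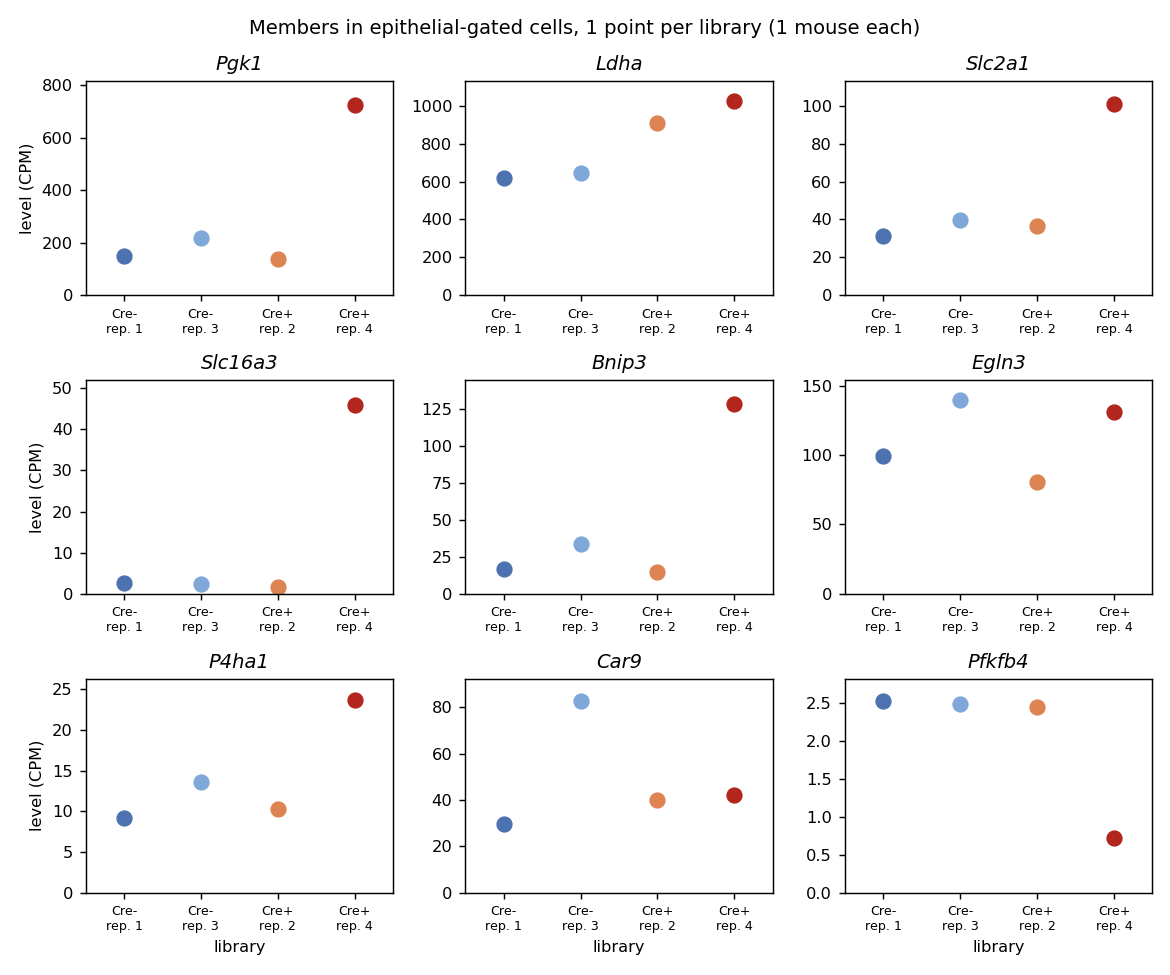
Level (CPM) of 9 genes of the set in epithelial cells, 1 point per library, with Cre- replicates 1 and 3 on the left and Cre+ replicates 2 and 4 on the right. Cre+ replicate 4 is highest for Pgk1, Ldha, Slc2a1, Slc16a3, Bnip3 and P4ha1 and lowest for Pfkfb4, and Cre+ replicate 2 is above both Cre- libraries for Ldha, at 907 CPM against 617 and 644 CPM.

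Outside the tail, as cut here, the epithelial cells of Cre+ replicate 4 held Pgk1 at 509 CPM, Bnip3 at 68.3 CPM and Slc16a3 at 29.4 CPM. The other libraries held at most 189, 18.1 and 2.49 CPM outside theirs. In Cre+ replicate 4 the cells with 0 choosing-gene UMIs summed to 5708 CPM of glycolytic enzymes, against 3852 to 4449 CPM in the others. Bnip3 is a choosing gene, so that the cut in part sets its level outside. Cells below the cut, or with 0 choosing-gene UMIs, can include cells like those of the tail, and their part was not tested. Thinned to 4000 UMIs, 34.1% of the epithelial cells of Cre+ replicate 4 were in the tail, against 21.3% at 2000 UMIs. Car9 (42.1 CPM), Egln3 (131 CPM) and Hilpda (40.3 CPM) of its epithelial cells lay within the range of the other libraries, and Hk1 (43.0 CPM), Plod2 (16.6 CPM) and Pfkfb4 (0.717 CPM) were the lowest of the 4. In Cre+ replicate 4 the barcodes with at most 100 UMIs, taken to be empty droplets, held the choosing genes at 573 CPM in sum. Levels of single genes in these barcodes are not given here. The part of such free RNA in the levels outside the tail was not tested.

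Both Cre+ mice lay above both Cre- mice in epithelial cells for 6 of the 35 genes, Aldoa, Ankrd37, Gpi1, Ldha, Mxi1 and Pfkp (12.8% of all genes), and below for 1, Pfkfb4 (15.4% of all genes). Pfkp was at 26.2 and 28.99 CPM in Cre- and at 53.8 and 50.4 CPM in Cre+ mice (0.97 ± 0.18 SE), and Ldha at 617 and 644 CPM and at 907 and 1027 CPM (0.68 ± 0.23 SE), both with an edgeR adjusted p that rounded to 1. In macrophages Hk2 lay above (6.67% of all genes) and Car9 and Plod2 below (18.3%), and in fibroblasts Bnip3l above (11.5%) and Car9, Ddit4, Pdk1 and Plod2 below (21.9%). None of these genes passed the test between the genotypes (edgeR, 0 of 35 in each class, with the unadjusted counts given above).

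In macrophages the 2 Cre+ mice differed from the Cre- mice in opposite directions. When Cre+ replicate 2 was left out, so that Cre+ replicate 4 alone stood against both Cre- libraries, edgeR called 21 of the 35 genes, all higher (5.52% of all genes were higher), among them Aldoa (1.18 on the log2 scale, adjusted p = 0.00836), Fam162a (1.14, adjusted p = 0.0106) and Bnip3 (1.67, adjusted p = 0.0136). When Cre+ replicate 4 was left out, it called 2 of the 35, Slc16a3 (-1.11, adjusted p = 0.0461) and Ndrg1 (-0.91, adjusted p = 0.0425), both lower (0.61% of all genes were lower). In epithelial cells the same step called Slc16a3 without Cre+ replicate 2 (4.36, edgeR adjusted p = 0.0491, where 0.106% of all genes were called, 0.0939% higher and 0.0117% lower) and 0 of the set without Cre+ replicate 4, where it called 1 gene (0.00586%). In these fits a lone library is assumed to vary like the others, and they compare 1 library with 2.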

How the data were processed

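Single cells sorted from the tumors of 4 mice were profiled with 10x Genomics 3′ chemistry. For each library the authors deposited whole-number UMI counts, not normalized. Per the file headers these counts were made with Cell Ranger 6.1.2 for replicates 1 to 3, deposited with called cells, and Cell Ranger 4 for replicate 4, deposited with all barcodes. The genome build for the mouse identifiers was not given in the sources used here, since the labels' processing notes name a human build. A 3′ count covers the end of a transcript, so isoforms were not separated.

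Barcodes with at least 1000 UMIs and at most 20% mitochondrial UMIs were kept, gated on 6 markers of each class and summed per library and class. A class needed at least 20 cells in a library. Gating required 70% of marker UMIs to be of 1 class, which removes many mixed barcodes, and no doublet caller was run. Sums were tested with edgeR 4.0.16 (quasi-likelihood, TMM, filterByExpr, Benjamini-Hochberg adjustment over all genes tested, threshold 0.05) in R 4.3.3, and DESeq2 1.42.0 was an alternative. The tail was defined on cells thinned to 2000 UMIs, and its levels were taken from unthinned sums. Intervals are exact binomial at 95%. Simulated data were used to check the direction of changes in the edgeR fits of epithelial cells against macrophages and of the tail, without the block. The pairing of sums within a library was not simulated. The epithelial genotype fit was simulated as well, but no standard was set for it. The genes named are all 35 members, lists of pathway and epithelial program genes, and the leading other genes of the tail. The members and lists were chosen with earlier results of these data known.

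Same-numbered sums come from the same library, treated as 1 mouse. Their deviations from the group means correlated at 0.295 to 0.658 between tail and other cells and at 0.057 to 0.475 between epithelial and other classes.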

Additional observations from a re-analysis of the deposited data

Results flagged for a closer look

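In Cre+ replicate 4, barcodes with at most 100 UMIs, which the comparisons did not use, held 2853 UMIs of the 6 choosing genes. In 5 cases both Cre- libraries differed between classes in one direction and both Cre+ libraries in the other, and the difference between the genotypes was not tested. The share of all genes with such a pattern was not counted, so the 5 cases are not a result about the set. The Slc2a1 case rests on a difference of 0.0175 CPM in Cre+ replicate 4. The cases against neutrophils rest in part on the sum of Cre+ replicate 2, with 29 cells and 124433 UMIs. Pdk1 stood there at 8.04 CPM. Slc2a1 in epithelial cells minus macrophages was -2.18 and -20.3 CPM in Cre- replicates 1 and 3 and 9.17 and 0.0175 CPM in Cre+ replicates 2 and 4. Mxi1 in epithelial cells minus macrophages was -7.57 and -23.4 CPM in the Cre- libraries and 3.73 and 3.97 CPM in the Cre+ libraries. Pdk1 in epithelial minus endothelial cells was -3.59 and -4.81 CPM in the Cre- libraries and 3.82 and 19.1 CPM in the Cre+ libraries. Eno1 in epithelial cells minus neutrophils was -33.6 and -36.6 CPM in the Cre- libraries and 1.81 and 37.7 CPM in the Cre+ libraries. Pdk1 in epithelial cells minus neutrophils was -1.01 and -4.15 CPM in the Cre- libraries and 17.4 and 26.1 CPM in the Cre+ libraries.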

How the results depend on the processing

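No paired analysis was possible for the genotypes because the Cre- and Cre+ libraries share no replicate number. Between genotypes, where edgeR called 0 genes, DESeq2 called 57 in epithelial cells (1 of the set), 18 in macrophages and 62 in fibroblasts, and without the filter on low counts edgeR called 5 in macrophages and 210 in fibroblasts. Leaving out 1 library gave 0 to 18 genes and 0 to 1 of the set in epithelial cells, 0 to 1632 and 0 to 21 in macrophages, and 0 in fibroblasts, with the highest counts without Cre+ replicate 2. The difference in tail share, Cre+ minus Cre-, ran from -3.69 (without Cre+ replicate 4) to 16.4 percentage points (without Cre+ replicate 2).

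In the tail, where edgeR without the block called 1 gene and 0 of the 29 held-out genes, DESeq2 called 184 and 7, no filter 2 genes, upper limits on genes and UMIs 7, and a threshold of 5 UMIs or thinning to 4000 UMIs 0. The replicate block called 435 and 22. Fits with the block under a second change were added after seeing the data and called 304 and 21 (gate at 90%) and 416 and 21 (Cre+ replicate 4 by order of magnitude). Leaving out 1 library gave 0 to 1463 genes and 0 to 26 held-out genes over both designs. With the block the genes called were 1463 without Cre- replicate 1, 215 without Cre+ replicate 2, 161 without Cre- replicate 3 and 241 without Cre+ replicate 4, with 26, 18, 19 and 20 held-out genes. Of the set, only Hk1 and Pfkfb4, neither of them called, turned direction. On the log2 scale Hk1 was at 0.026 under upper limits, 0.080 at 5 UMIs and 0.038 without Cre- replicate 3, and with the block at 0.028 without Cre+ replicate 2 and 0.095 without Cre- replicate 3, within a range of -0.24 to 0.095 over all libraries left out. Pfkfb4 was at 0.28 at 5 UMIs and with the block at 0.057 without Cre- replicate 1, within -0.77 to 0.057.

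Between classes, leaving out 1 library gave 15 to 23 of the set and 7020 to 8901 genes against macrophages, 10 to 18 and 6184 to 8347 against fibroblasts (10 without Cre- replicate 3), 8 to 21 and 5975 to 7779 against endothelial cells (8 without Cre- replicate 1 or 3, 11 without Cre+ replicate 2), 11 to 21 and 4565 to 7241 against neutrophils (4565 without Cre- replicate 1), and 12 to 22 and 6906 to 8551 against T cells. B cells were not compared, because under 3 libraries held 20, and neutrophils had too few cells at 5000 UMIs. The cause of these changes was not tested. Each genotype had 2 libraries, the smallest tail held 28 cells and the smallest neutrophil sum 29.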
